A study of Mus musculus with 30 samples.

Results

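The genes described here are 10 genes of iron handling and ferroptosis, chosen by name: Tfrc, Fth1, Ftl1, Slc40a1, Acsl4, Lpcat3, Aifm2, Slc3a2, Sat1 and Ptgs2. They are 10 of the 57133 genes in the deposited count tables, and all 10 passed the filter on low counts in every comparison. RNA of whole mouse kidney, enriched for poly-A, was sequenced in 30 libraries of 8 groups. Wild-type (WT) mice were set beside transgenic (TG) mice, whose genotype is labelled Gsta2-H2BeGFP. Without surgery, each genotype had 3 libraries of males and 3 of females. Nephrectomy (NX), in which a kidney is taken out, had 3 libraries of males in each genotype. After NX with ischemia-reperfusion injury (IRI), in which renal blood flow is stopped and then restored, each genotype had 6 libraries of males, and the series' design text puts these kidneys at 4 h after injury. The libraries come from kidneys, and the labels give neither the age of the mice, nor the time of the NX kidneys, nor the promoter of the transgene, nor whether TG mice came from 1 founder line. Nothing in them states that replicates, numbered here from 0, were separate animals, so every p-value rests on the spread among libraries, which may be technical.

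Cells take up iron through the transferrin receptor, store it in ferritin shells and release it through ferroportin. Iron that is not held in ferritin can drive the peroxidation of polyunsaturated fatty acids in membranes, and a cell that cannot repair such lipids dies by ferroptosis, a form of cell death known in the tubules of the injured kidney. Defence rests on cystine import, glutathione and the peroxidase Gpx4, and beside it on quinones that are kept reduced at the membrane.

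Iron acts on several of these transcripts through a short RNA hairpin, the iron-responsive element, which is bound by iron regulatory proteins when iron is scarce. An element in the 5′ UTR blocks translation when bound, while the elements in the 3′ UTR of Tfrc protect the messenger RNA from decay. A search of GENCODE M21 transcripts (GRCm38) for a C bulge, 5 bases, the loop CAGTGN and 5 bases able to pair with the first 5, on the transcript's own strand, found the element in 4 of the 10 genes. Windows of 30 bases are shown because they divide the iron genes into those with elements before and after the coding sequence, with the loop in capitals. The 5′ UTR elements are these.
Fth1, chr19:9982732-9982761, plus strand: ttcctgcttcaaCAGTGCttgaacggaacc
Ftl1, chr7:45459778-45459807, minus strand: gtcttgcttcaaCAGTGTttgaacggaaca
Slc40a1, chr1:45925464-45925493, minus strand: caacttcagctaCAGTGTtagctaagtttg
Tfrc held 4 elements in its 3′ UTR, all on the plus strand.
Tfrc, chr16:32631219-32631248: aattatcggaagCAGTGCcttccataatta
Tfrc, chr16:32631598-32631627: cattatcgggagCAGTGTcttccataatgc
Tfrc, chr16:32631663-32631692: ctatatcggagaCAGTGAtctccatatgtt
Tfrc, chr16:32631710-32631739: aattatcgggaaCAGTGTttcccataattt
By the same search, 31 of 20899 genes with an annotated 5′ UTR (0.148%) and 128 of 21685 with an annotated 3′ UTR (0.59%) held at least 1 match. The counts below measure messenger RNA, so translational control through the 5′ elements would not appear in them.

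The 12 libraries without surgery held 49040915 to 66446450 counts each, and the 18 with NX or IRI 59574069 to 91354407. The transgene's EGFP reads were at 0 in 14 of the 15 WT libraries, and the library labelled WT IRI replicate 1 held 206 of them (2.59 CPM, a unit that corrects counts for library size), a level within that of TG IRI kidneys (1.19 to 6.34 CPM). Markers of the proximal tubule, the main tissue of the kidney cortex, were present throughout, at a summed 7821 CPM or more in every library. WT NX replicate 0 stood apart in fat cell markers: Adipoq, Plin1, Fabp4 and Cidec summed to 663 CPM there, against 15.3 and 18.1 CPM in the other WT NX libraries. Neutrophil markers (S100a8, S100a9, Ly6g, Cxcr2, Retnlg) summed to between 0.032 and 0.418 CPM after NX and between 3.87 and 74.1 CPM after IRI. Of the 5, 4 passed the count filter and were called higher after IRI in each genotype. Among NX libraries alone 0 passed it, so the 4 passed through the IRI libraries, and their calls add nothing to the sums. In a whole-kidney library, fewer cells of a type and less RNA per cell cannot be told apart.

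Levels of different genes were set side by side per kilobase of exon, in CPM per kb, over all annotated exons of each gene together. That length can be well over the length of a transcript. It was 9000 bases for Slc40a1 and 3469 for Fth1, whose transcripts shown above with the element have 3370 and 1494 bases. The order of genes close in level therefore depends on the length used. Fth1, the ferritin heavy chain, was the highest of the 10 in all 8 groups, from 895 CPM per kb in TG females to 1374 in WT NX, and took 0.301 to 0.538% of all counts in a library. Ftl1, the light chain, came next at 323 to 455 CPM per kb. Sat1 and Slc3a2 followed at 55.7 to 133 CPM per kb, and Lpcat3, Tfrc and Acsl4 came below them. Slc40a1 and Aifm2 lay between 4.39 and 8.28 CPM per kb, and Ptgs2 was lowest in every group, from 0.0364 in WT NX to 2.74 in WT IRI. Both count tables were scaled separately, so levels with and without surgery are set side by side without a test.

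After injury Ptgs2, Sat1 and Acsl4 rose in both genotypes, and the share of all genes called higher in both was not counted. In WT, IRI against NX, 3 members rose and 2, Aifm2 and Fth1, fell by edgeR's quasi-likelihood test at an adjusted p under 0.05, or 5 of 10, where 30.9% of all tested genes were called (16.8% higher, 14.1% lower). In TG, 5 rose (Ptgs2, Sat1, Acsl4, Slc3a2 and Tfrc) and 1, Slc40a1, fell, or 6 of 10, where 29.4% of all genes were called (16.4% higher, 13% lower). The median change of the 10 genes was 0.12 in WT and 0.21 in TG on the log2 scale, beside -0.01 over all tested genes in each. Upper-quartile scaling moved the median of all genes to -0.10 in WT and -0.14 in TG. It also turned the split of calls over all genes from 3229 higher and 2723 lower to 2790 higher and 3931 lower in WT, and from 3152 and 2509 to 2488 and 4280 in TG. Tubule markers moved with injury too. Of the 6 proximal tubule markers 2 fell in WT and 3 in TG, with sums of 9981 to 15571 CPM in WT NX, 8699 to 11369 in WT IRI, 9860.3 to 12402 in TG NX and 8848 to 10203 in TG IRI. Of the 4 markers of the thick ascending limb and macula densa 3 rose in WT and 0 were called in TG, with sums of 2230.2 to 2905 CPM in WT NX, 3448 to 5982 in WT IRI, 2533 to 4028 in TG NX and 2679 to 4445 in TG IRI. Their part in the changes of the 10 genes was not tested.

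**Figure D1:**
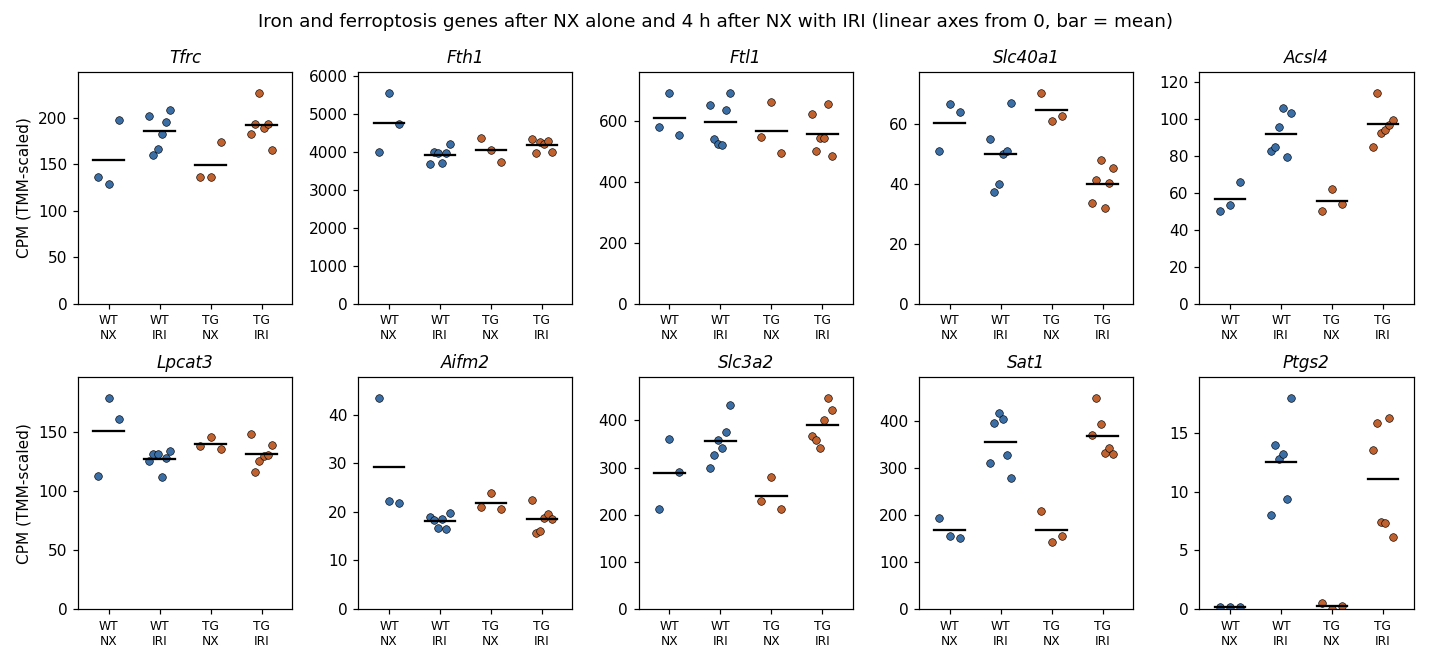
Levels of the 10 genes (CPM, linear axes from 0) in each NX and IRI library, with WT in blue, TG in orange and a bar at each group's mean. Every IRI library lies above every NX library for Ptgs2, Sat1 and Acsl4, and WT NX replicate 0 stands alone at 43.4 CPM in the Aifm2 panel.

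Tfrc (chr16:32427738-32451612, GRCm39, as are the gene positions below) encodes the transferrin receptor, the entry point of iron. After NX it measured 136, 129.5 and 198 CPM in WT replicates 0, 1 and 2, and 136, 137 and 174 CPM in TG. After IRI the 6 WT libraries, replicates 0 to 5, read 202, 159.9, 167, 183, 196 and 209 CPM, and the 6 TG libraries 183, 194, 227, 189.5, 194 and 166 CPM. In each genotype replicate 2 of NX overlapped the IRI libraries and the other 2 lay below all of them. In TG the rise was 0.37 ± 0.13 (log2 fold change ± SE, adjusted p = 0.0412) from 149 ± 21.9 (SD, n = 3) to 192 ± 20 CPM (n = 6). That call was lost in 7 of the 9 fits that left out 1 TG library (adjusted p up to 0.18, without TG NX replicate 0) and under upper-quartile scaling (0.23, adjusted p = 0.207). In WT the change was 0.27 ± 0.13 (adjusted p = 0.13). It was 0.51 (adjusted p = 0.00862) without WT NX replicate 2, and 0.19 (adjusted p = 0.391) without WT NX replicate 0. Red cell precursors carry much transferrin receptor. In whole-kidney RNA the cells that gave the reads of their listed markers, Slc4a1 among them, cannot be told. These markers (Hba-a1, Hba-a2, Hbb-bs, Hbb-bt, Alas2, Slc4a1) moved with injury: 5 of the 6 tested rose in WT, and 4 rose and 1 fell in TG. Their summed level was 64.9 to 139.5 CPM in WT NX, with the highest value in replicate 2, 132 to 1337 in WT IRI, 31.3 to 54.6 in TG NX and 44.7 to 170.1 in TG IRI, with no marker at 0 throughout any of these groups, and their part in the Tfrc values was not tested.

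Fth1 (chr19:9957962-9962462) encodes the ferritin chain that oxidizes iron for storage. WT NX libraries read 4002, 5554 and 4741 CPM, and WT IRI libraries 3679, 4001, 3969.8, 3697, 3971 and 4203 CPM, so that 1 NX library lay among the IRI ones. The fall in WT was -0.28 ± 0.09 (adjusted p = 0.0169), from 4765 ± 776 to 3920.2 ± 199.6 CPM. It was not called without WT NX replicate 1 (-0.14, adjusted p = 0.271), without WT NX replicate 2 (-0.27, adjusted p = 0.0749), with no count filter (adjusted p = 0.0927), or with the 2 groups fitted alone (adjusted p = 0.0789). TG kidneys measured 4378, 4052 and 3742 CPM after NX and 4333, 3960.4, 4270.4, 4222, 4299 and 3996 CPM after IRI, a difference of 0.04 ± 0.09 (adjusted p = 0.765). Ftl1 (chr7:45107368-45109308), the chain that helps lay down the iron core, gave no call in either genotype. It measured 556 to 692 CPM in WT NX, 523 to 693 in WT IRI, 495 to 662 in TG NX and 485 to 656 in TG IRI, and the changes were -0.03 ± 0.12 and -0.02 ± 0.12. Counting can divide reads between these genes and their annotated copies. The copy Ftl1-ps1 held 0.803 to 3.96% of the counts of Ftl1 and Ftl1-ps1 together. Summed whichever chain they resemble, 13 other annotated copies held at most 0.00939% of the Fth1 count. Reads that match a gene and a copy equally may be left uncounted, and these shares cannot show how many were.

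Slc40a1 (chr1:45947228-45965683) encodes ferroportin, the exporter of iron, and it fell with injury in TG kidneys. TG NX libraries measured 70.3, 60.8 and 62.7 CPM, and TG IRI libraries 33.7, 41.4, 48, 31.9, 40.4 and 45.2 CPM, with no overlap. This was a fall of -0.69 ± 0.15 (adjusted p = 0.00208), from 64.6 ± 5.03 to 40.1 ± 6.3 CPM. WT libraries measured 50.8, 66.5 and 63.8 CPM after NX and 54.9, 37.2, 39.9, 50.1, 50.8 and 66.8 CPM after IRI. The WT groups overlapped, and the difference was -0.27 ± 0.16 (adjusted p = 0.201), or -0.41 (adjusted p = 0.032) by limma-voom. The difference between the genotypes' responses was -0.41 ± 0.22 (adjusted p = 0.577). Macrophages, which recycle the iron of red cells, are rich in ferroportin, and their 7 markers summed to 64 to 111 CPM after NX and 75.3 to 102 CPM after IRI, with Vsig4 at 0 in all IRI libraries. Of the 6 tested, 2 rose and 1 fell in WT and 1 rose and 1 fell in TG.

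Acsl4 (chrX:141100989-141173531) activates the long polyunsaturated fatty acids that ferroptosis peroxidizes. NX kidneys measured 50.4, 53.5 and 65.8 CPM in WT and 50.2, 62 and 54.2 CPM in TG. After IRI, WT libraries read 82.5, 84.7, 95.4, 106, 79.6 and 103 CPM, and TG libraries 84.8, 114, 92.5, 94.2, 96.8 and 99.4 CPM. All 12 IRI libraries lay above all 6 NX libraries. The rise was 0.70 ± 0.12 in WT (adjusted p = 0.000132) and 0.81 ± 0.12 in TG (adjusted p = 3.02e-05). Lpcat3 (chr6:124639990-124681381), which places such acids into phospholipids, gave no call: 113, 179 and 161 CPM in WT NX against 126, 132, 132, 112, 128 and 134 CPM in WT IRI (-0.25 ± 0.11, adjusted p = 0.0891). Without WT NX replicate 0, the fat-rich library, the Lpcat3 change was -0.41 (adjusted p = 0.00265), and without WT NX replicate 1 it was -0.09 (adjusted p = 0.625). With all libraries Lpcat3 passed under upper-quartile scaling (-0.33, adjusted p = 0.0249) and by limma-voom (-0.29, adjusted p = 0.0226). TG kidneys ranged from 136 to 146 CPM after NX and from 116 to 149 CPM after IRI (-0.09 ± 0.11).

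Aifm2 (chr10:61551042-61575039) encodes FSP1, an oxidoreductase that keeps ubiquinone reduced at the membrane. WT NX libraries measured 43.4, 22.2 and 21.9 CPM, and WT IRI libraries 18.9, 18.3, 16.6, 18.6, 16.4 and 19.7 CPM, without overlap. The fall was -0.69 ± 0.16 (adjusted p = 0.00329), from 29.2 ± 12.3 to 18.1 ± 1.32 CPM. Without WT NX replicate 0, the fat-rich library, it was -0.28 (adjusted p = 0.103). TG libraries measured 21, 23.9 and 20.5 CPM after NX and 22.5, 15.7, 16.1, 18.7, 19.6 and 18.5 CPM after IRI, a difference of -0.24 ± 0.17 (adjusted p = 0.318). Over the 4 groups, WT NX replicate 0 thus held both the highest Aifm2 level and the highest sum of the 4 fat cell markers, of which none was at 0 in any group and 3 fell in WT.

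Slc3a2 (chr19:8684246-8700733) encodes the heavy chain that brings Slc7a11, the cystine importer, and several amino acid exchangers to the cell surface. TG libraries measured 230, 279 and 213 CPM after NX and 367, 358, 342, 401, 447 and 422 CPM after IRI, with no overlap. The rise in TG was 0.69 ± 0.14 (adjusted p = 0.00107), from 241 ± 34.4 to 389 ± 40.6 CPM. In WT, NX libraries spread from 212 through 291 to 361 CPM and overlapped the IRI libraries, at 299, 326, 358, 342, 375 and 432 CPM. The WT change of 0.30 ± 0.14 was not called (adjusted p = 0.113). Without WT NX replicate 1, the highest, it was 0.51 (adjusted p = 0.0181), and without WT NX replicate 0, the lowest, it was 0.13 (adjusted p = 0.524). The difference between responses was 0.39 ± 0.20 (adjusted p = 0.547).

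Sat1 (chrX:153996128-153999445) encodes the enzyme that acetylates spermidine and spermine, the first step of polyamine breakdown. WT kidneys measured 194, 156 and 152 CPM after NX and 311, 396, 416, 403, 327 and 278 CPM after IRI. TG kidneys measured 208, 142 and 155 CPM after NX and 369, 448, 393, 331, 342 and 329 CPM after IRI. No IRI library reached down to the NX range in either genotype. Sat1 rose by 1.09 ± 0.15 in WT (adjusted p = 1.94e-05) and by 1.13 ± 0.15 in TG (adjusted p = 1.2e-05).

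Ptgs2 (chr1:149975782-149983978) encodes cyclooxygenase-2, which makes prostaglandin precursors and is widely used as a transcript marker of ferroptosis. It was close to absent after NX, with 10, 10 and 12 counts in WT (0.155, 0.153 and 0.193 CPM) and 50, 0 and 22 counts in TG. The TG library at 0 allows up to 3 counts, or 0.0480 CPM, and this limit covers counting error only. After IRI, WT libraries measured 8.02, 14, 12.8, 13.2, 9.4 and 18 CPM, and TG libraries 13.6, 15.9, 7.4, 7.34, 16.3 and 6.12 CPM. The lowest IRI library, at 440 counts, thus stood far above the highest NX library at 50. The rise was 6.22 ± 0.63 in WT (adjusted p = 4.46e-07) and 5.26 ± 0.57 in TG (adjusted p = 1.19e-06), the largest of the 10 genes. Neutrophils also transcribe Ptgs2, and the library with the highest Ptgs2 level in each genotype, WT IRI replicate 5 and TG IRI replicate 4, also had that group's highest sum of neutrophil markers (74.1 and 31.5 CPM). The order of the other libraries differed: WT IRI replicate 1, second in Ptgs2 at 14 CPM, had the lowest neutrophil sum of its group (16.8 CPM), and TG IRI replicate 1, second at 15.9 CPM, had 8.96 CPM. Of those 5 markers Ly6g was at 0 in all WT NX libraries and none was at 0 throughout the IRI groups, and their part in the Ptgs2 values was not tested.

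The 2 injury responses were not shown to differ for any of the 10 genes. By edgeR's quasi-likelihood test of the genotype by injury interaction 0 of 10 were called, where 0% of all genes were. An unadjusted p under 0.05 was found for 1 member, beside 9.59% of all genes. DESeq2 and limma-voom also called 0 members, beside 41 and 0 genes in all. The member with the smallest p was Fth1 (0.32 ± 0.12, adjusted p = 0.426). Leaving out WT IRI replicate 1, the WT library that held EGFP reads, gave the same counts of 5 called in WT and 0 for the interaction. Leaving out WT NX replicate 0 also gave 5 in WT, with Lpcat3 gained and Aifm2 lost.

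**Figure D2:**
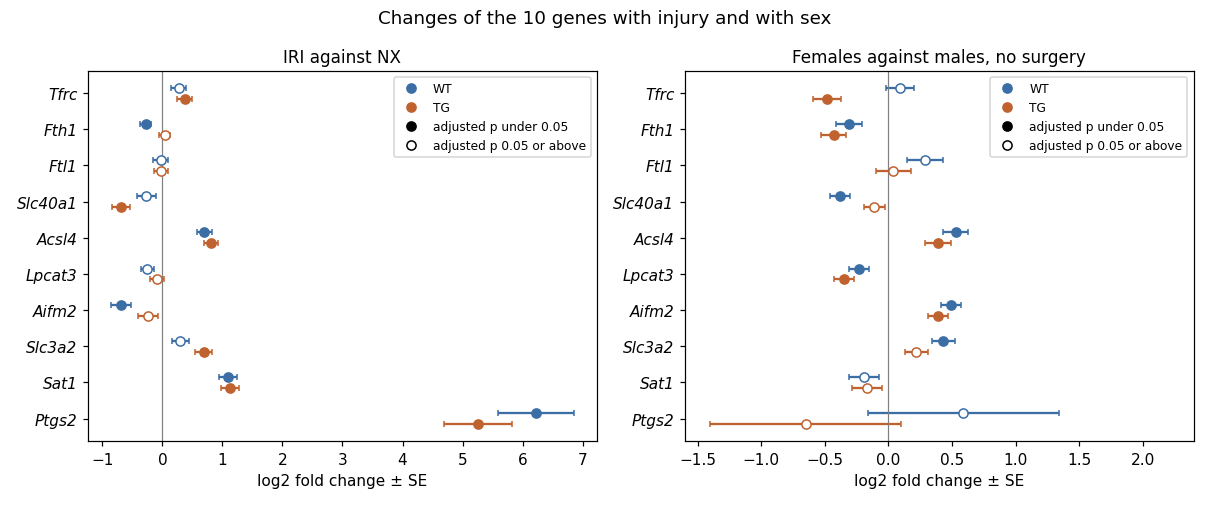
Log2 fold change ± SE of each gene for IRI against NX (left) and for females against males without surgery (right), WT in blue and TG in orange, filled where the adjusted p is under 0.05. Ptgs2 reaches 6.22 in WT and 5.26 in TG after injury, while the sex differences other than that of Ptgs2 lie between -0.48 and 0.53.

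Other genes of the same pathways were described from 5 lists. Of the 30 genes of glutathione, cystine and quinone defence, 10 rose and 14 fell after injury in WT (median -0.14), and 10 rose and 4 fell in TG (median 0.06). These are 80% of the list in WT and 46.7% in TG, beside 30.9% and 29.4% of all genes. The count of fallen genes moved with the fit. In WT it was 8 with no count filter, and 9 with the replicate number as a block or with the 2 groups fitted alone. In TG it was 9 with upper-quartile factors and 0 to 3 when 1 library was left out. By the genotype by injury interaction 0 of these 30 genes were called. Chac1, which breaks down glutathione, rose from 0.288 ± 0.254 to 21.4 ± 10.7 CPM in WT (6.20 ± 0.50, adjusted p = 2.37e-08) and by 6.38 ± 0.49 in TG. Slc7a11, the partner of Slc3a2 in cystine import, rose from 0.195 ± 0.145 to 2.29 ± 1.43 CPM in WT (3.53 ± 0.63) and from 0.067 ± 0.0375 to 1.47 ± 0.652 CPM in TG (4.40 ± 0.69). Srxn1, which restores oxidized peroxiredoxins, rose by 2.44 ± 0.24 and 2.75 ± 0.24. Gpx4, the peroxidase that repairs membrane lipids, fell from 596 ± 27.7 to 480.0 ± 40.2 CPM in WT (-0.31 ± 0.08, adjusted p = 0.00363). In TG it measured 534 ± 41.6 and 506 ± 19.6 CPM (-0.08 ± 0.08, adjusted p = 0.491). Under upper-quartile scaling the TG fall was called as well (-0.21, adjusted p = 0.0436). The difference between the responses was not called (0.23 ± 0.11, adjusted p = 0.503).

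Of the 33 tested genes of iron uptake, storage, export and regulation, 3 rose and 7 fell in WT (median -0.13), and 6 rose and 3 fell in TG (median 0.04). At 30.3% and 27.3% called, the iron list was near the 30.9% and 29.4% of all genes. With upper-quartile scaling 16 were called in WT, 13 of them lower, and 14 in TG, 8 of them lower. The rises were led by Lcn2, which binds iron-carrying siderophores (4.39 ± 0.35 in WT, 3.72 ± 0.33 in TG), and Hmox1, the oxygenase that frees iron from heme. Hmox1 rose from 52.1 ± 10.6 to 227 ± 86.4 CPM in WT (2.12 ± 0.29, adjusted p = 1.53e-05) and from 45.3 ± 12.3 to 422 ± 88.5 CPM in TG (3.22 ± 0.30, adjusted p = 2.11e-07). The heme exporter Flvcr1 rose by 1.33 ± 0.22 and 1.16 ± 0.22. Ireb2, which encodes an iron regulatory protein, fell by 0.37 in WT (SE 0.11, adjusted p = 0.0159) and by 0.32 in TG (SE 0.11, adjusted p = 0.0338). The Ireb2 call was lost without WT NX replicate 2 (-0.23, adjusted p = 0.182) and, in TG, in 6 of the 9 fits without 1 library. Ncoa4, the receptor that delivers ferritin for breakdown, gave no call (0.06 ± 0.12 and 0.04 ± 0.12).

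**Figure D3:**
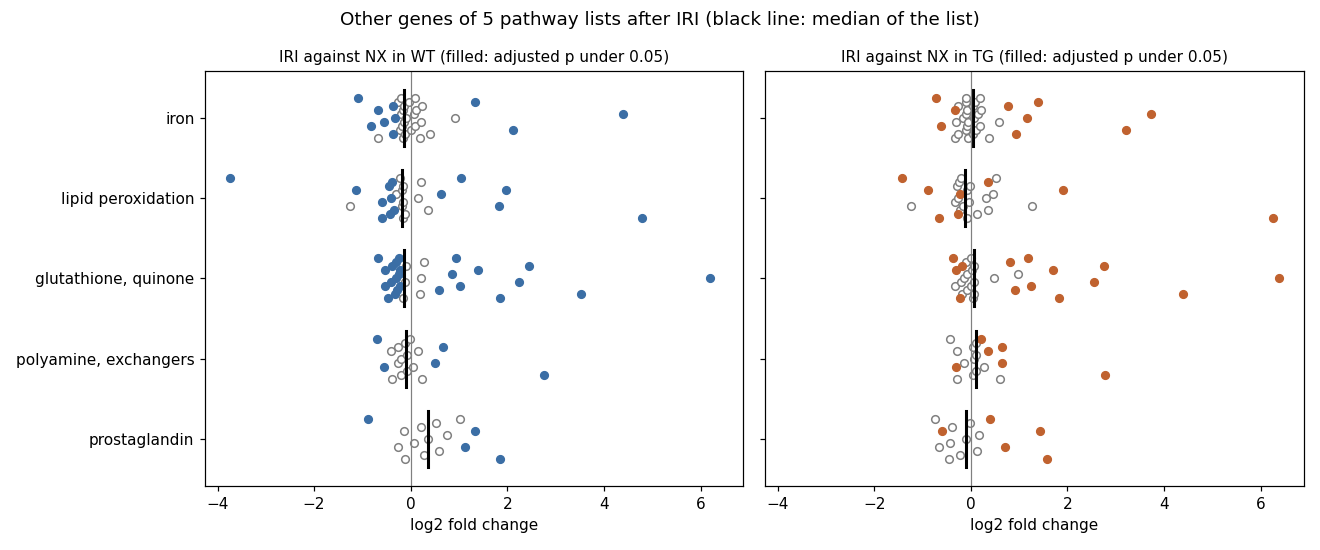
Log2 fold changes of the genes in 5 pathway lists, IRI against NX, WT on the left and TG on the right, on a shared axis. Each point is 1 gene, filled where the adjusted p is under 0.05, and the black line is the list's median, which stays between -0.19 and 0.36 while single genes such as Chac1 lie beyond 6.

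The list named polyunsaturated lipid synthesis and peroxidation also holds genes of other lipids, such as Scd1. Among its 26 tested genes, 5 rose and 9 fell in WT (median -0.19), and 3 rose and 5 fell in TG (median -0.12). That is 53.8% of the list in WT, beside 30.9% of all genes, and 30.8% in TG, near the 29.4% of all genes. The WT count was 9 in all, in place of 14, without WT NX replicate 2. Aloxe3, an epidermal-type lipoxygenase, rose to 1.77 ± 1.03 CPM in WT and 1.49 ± 0.676 CPM in TG from at most 0.0616 CPM on average. Mboat1, a lysophospholipid acyltransferase, rose by 1.97 ± 0.31 and 1.90 ± 0.31. Scd1, the desaturase of saturated fatty acids and abundant in fat, fell by 3.75 in WT (SE 0.48), from 823 ± 912 to 61 ± 20.4 CPM, with a change of -2.28 when WT NX replicate 0 was left out. In TG its change was -1.24 ± 0.47 (adjusted p = 0.0547).

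In the list of polyamine metabolism and exchangers, 3 of 18 rose and 2 fell in WT (median -0.10), and 5 rose and 1 fell in TG (median 0.10), or 27.8% and 33.3% of the list, near the shares of all genes (30.9% and 29.4%). The count in WT was 8 rather than 5 without WT NX replicate 0. Slc7a5, an exchanger that pairs with Slc3a2, rose by 2.76 ± 0.33 and 2.78 ± 0.33, and Smox, which oxidizes spermine, by 0.67 ± 0.15 and 0.64 ± 0.15. Slc3a1, the related heavy chain of the renal cystine transporter, went the other way from Slc3a2, at -0.70 ± 0.09 in WT and -0.30 ± 0.09 in TG. In the prostaglandin list, 3 of 15 rose and 1 fell in WT (median 0.36), and 4 rose and 1 fell in TG (median -0.09), or 26.7% and 33.3%, again near those shares. The receptor Ptger4 rose by 1.85 ± 0.22 and 1.44 ± 0.21, and the prostaglandin E synthase Ptges by 1.12 ± 0.20 and 0.71 ± 0.20. Ptgir, the prostacyclin receptor, rose by 1.33 ± 0.47 in WT (adjusted p = 0.0367) and 1.58 ± 0.48 in TG (adjusted p = 0.0164), and lost the call in WT in 5 of the 9 fits that left out 1 library and in TG without TG NX replicate 0 or 2. In all, the TG count of the prostaglandin list was 3 without TG NX replicate 0 and 2 without TG NX replicate 2, against 5 with all libraries.

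The design text sets WT beside TG kidneys at 4 h after IRI. By edgeR's quasi-likelihood test 0 of the 10 genes were called there, where 0.0701% of all genes were. The same 0 came from DESeq2 and limma-voom, which called 363 and 15 genes in all. Of all genes 14.1% had an unadjusted p under 0.05. The member with such a p was Slc40a1, at 40.1 ± 6.3 CPM in TG and 49.9 ± 10.7 CPM in WT (-0.33 ± 0.14, adjusted p = 0.318). Without WT IRI replicate 1 that difference was -0.40 (adjusted p = 0.226). The groups overlapped for all 10 genes, and the differences of the other 9 ran from -0.19 ± 0.26 (Ptgs2) to 0.12 ± 0.09 (Slc3a2). Hmox1 differed by 0.89 ± 0.21 (adjusted p = 0.126), and passed the threshold by DESeq2 (0.89, adjusted p = 0.00325) and without WT IRI replicate 3 (1.08, adjusted p = 0.0314). After NX alone 0 of 10 were called, where 0.0117% of all genes were. None of the 10 had an unadjusted p under 0.05, beside 6.77% of all genes. DESeq2 and limma-voom called 0 members, beside 45 and 2 genes in all. The TG against WT differences after NX ran from -0.43 ± 0.24 (Aifm2) to 0.72 ± 1.02 (Ptgs2). Without the fat-rich library that of Aifm2 was -0.02.

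Without surgery, Slc40a1 was the member closest to a genotype call. In females it measured 45.7, 50.1 and 45.1 CPM in WT and 70.5, 63.3 and 69.4 CPM in TG. Every TG female library lay above every WT one, with means of 67.7 ± 3.87 and 47 ± 2.68 CPM (0.53 ± 0.08, adjusted p = 0.0511). Same-numbered libraries of these groups deviate together, and with the replicate number as a block the adjusted p was 0.0358, so that the gene passed. It passed as well under 7 other settings, with adjusted p from 1.76e-05 by DESeq2 to 0.0466 with RLE size factors. It did not pass in any of the 6 fits that left out 1 library (adjusted p from 0.0542 to 0.312) or with the 2 groups fitted alone (adjusted p = 0.0554). By edgeR's unblocked test 0 of 10 members were thus called in females, where 0.0418% of all genes were. An unadjusted p under 0.05 was found for 2 members, beside 9.09% of all genes. DESeq2 and limma-voom called 1 member each, beside 221 and 73 genes in all.

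In males without surgery, Slc40a1 measured 62.4, 59.1 and 61.3 CPM in WT and 70.3, 82.2 and 66.3 CPM in TG, again without overlap (0.26 ± 0.08, adjusted p = 0.916). There 0 of 10 members were called by edgeR, DESeq2 and limma-voom, where 0.00523% of all genes were by edgeR. DESeq2 and limma-voom called 14 and 0 genes in all. Slc40a1 was the member with an unadjusted p under 0.05, beside 5.22% of all genes. The order of the 8 Slc40a1 group means ran from TG males without surgery (72.9 CPM), TG females (67.7), TG NX (64.6), WT males (60.9) and WT NX (60.4) down to WT IRI (49.9), WT females (47) and TG IRI (40.1), and neighbours in that order, set side by side without a test, differed by less than the sum of their SDs.

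The TG against WT difference of Tfrc had opposite signs by sex, and it was called in neither sex. Males measured 101, 90 and 106 CPM in WT and 116, 114 and 107 CPM in TG, and females 92.6, 99.7 and 124 CPM in WT and 89.6, 78.8 and 72.9 CPM in TG. The groups did not overlap within either sex: TG was higher in males (0.18 ± 0.11, adjusted p = 0.922) and lower in females (-0.39 ± 0.11, adjusted p = 0.254). The test of the difference, the genotype by sex interaction, gave -0.57 ± 0.15 (adjusted p = 0.381). By that test 0 of 10 members were called with edgeR, DESeq2 and limma-voom, where 0.00523% of all genes were by edgeR. DESeq2 and limma-voom called 81 and 4 genes in all. The 2 members Tfrc and Slc40a1 had an unadjusted p under 0.05, beside 8.58% of all genes.

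More of the 10 genes were called by sex than by genotype. In WT, females against males, 3 were higher (Acsl4, Aifm2, Slc3a2) and 3 lower (Slc40a1, Fth1, Lpcat3), or 6 of 10, where 21.3% of all genes were called (10.1% higher, 11.3% lower). In TG, 2 were higher (Acsl4, Aifm2) and 3 lower (Tfrc, Fth1, Lpcat3), or 5 of 10, where 21.2% of all genes were called (9.87% higher, 11.3% lower). The median over the 10 genes was 0.19 in WT and -0.14 in TG, beside 0.03 and 0.02 over all genes. Markers of other nephron segments moved with sex as well. Those of the collecting duct were higher in females for 4 of 4 in WT and 2 of 4 in TG, and summed to 391 to 602 CPM in WT males, 848 to 1237 in WT females, 533 to 744 in TG males and 553 to 879.7 in TG females. Those of the thick ascending limb and macula densa were higher for 2 of 4 in each genotype, and summed to 3456 to 5339 CPM in WT males, 5789 to 6685 in WT females, 3485 to 3839 in TG males and 5767 to 6216 in TG females. Of the 6 proximal tubule markers 1 was higher and 2 lower in WT females, and 2 were higher and 2 lower in TG females. None of these markers was at 0 throughout a group, and their part in the sex differences was not tested.

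**Figure D4:**
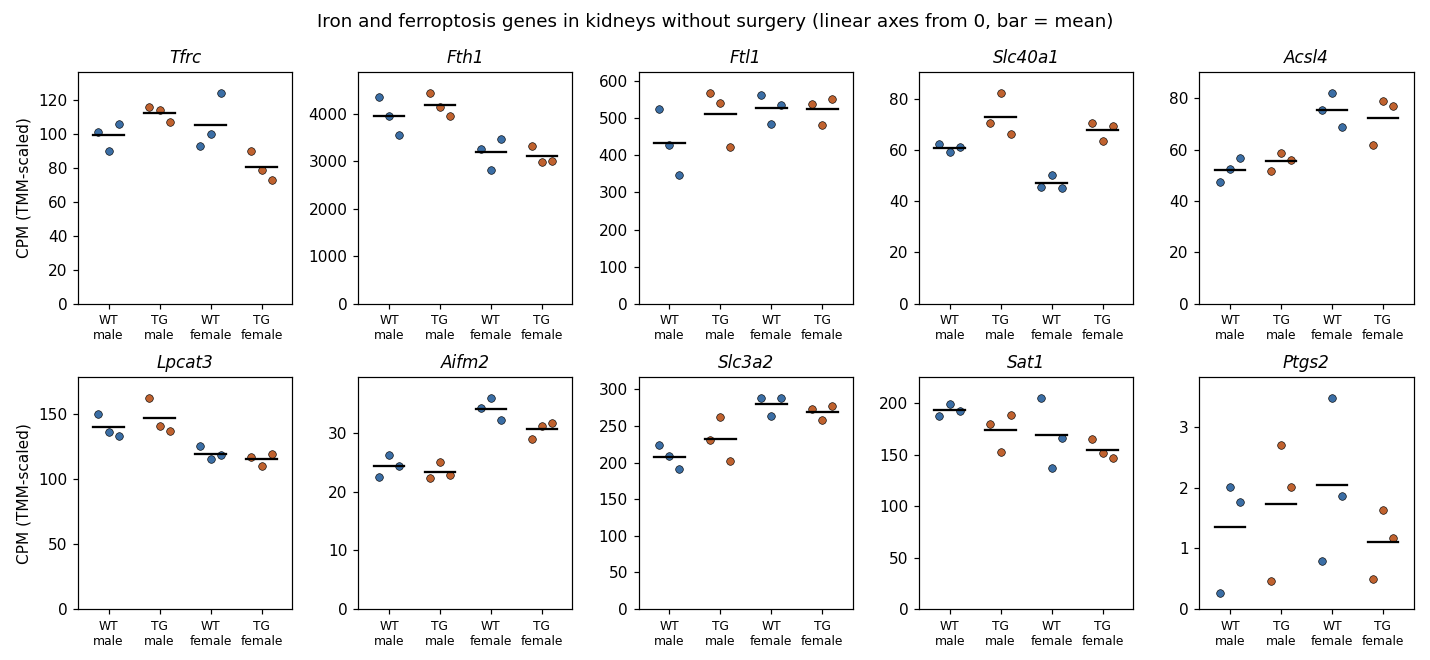
Levels of the 10 genes (CPM, linear axes from 0) in each library without surgery, with WT in blue, TG in orange and a bar at each group's mean. Aifm2 lies at 29 CPM or above in all 6 females and at 26.2 CPM or below in all 6 males, and replicate 0, the leftmost point, is the lowest Ptgs2 value of each group.

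Acsl4 measured 47.4, 52.3 and 56.6 CPM in WT males and 75.6, 82.1 and 68.8 CPM in WT females, and 51.8, 58.8 and 55.8 CPM in TG males against 61.7, 78.8 and 77.1 CPM in TG females. Every female library lay above every male one. The difference was 0.53 ± 0.10 in WT (adjusted p = 0.00258) and 0.39 ± 0.10 in TG (adjusted p = 0.0178). Leaving out TG female replicate 1 or 2 or TG male replicate 0 took away the TG call, with adjusted p from 0.0715 to 0.0795. Aifm2 measured 22.4, 26.2 and 24.4 CPM in WT males and 34.3, 35.9 and 32.2 CPM in WT females (0.49 ± 0.08, adjusted p = 0.00103), and 22.3, 25 and 22.8 CPM against 29, 31.2 and 31.7 CPM in TG (0.39 ± 0.08, adjusted p = 0.00445). Slc3a2 measured 224, 209 and 191 CPM in WT males and 288, 264 and 288 CPM in WT females (0.43 ± 0.09, adjusted p = 0.00489), while the TG groups overlapped (231, 262 and 202 CPM against 273, 258 and 278 CPM). The TG difference for Slc3a2 was 0.22 ± 0.09 (adjusted p = 0.11), and 0.33 (adjusted p = 0.0155) without the 2 libraries richest in Adipoq.

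Fth1, the ferritin heavy chain, was lower in females, and Ftl1, the light chain, was not called. Fth1 measured 4348, 3951 and 3559.9 CPM in WT males and 3271, 2825 and 3481 CPM in WT females (-0.31 ± 0.10, adjusted p = 0.0419), and 4442, 4141 and 3953 CPM in TG males against 3325, 2992 and 3001 CPM in TG females (-0.43 ± 0.10, adjusted p = 0.00822). The WT call was lost without any 1 of 4 libraries, both males and females (adjusted p from 0.0645 to 0.157), and with the 2 groups fitted alone (adjusted p = 0.114). Ftl1 measured 346 to 525 CPM in WT males and 485 to 562 CPM in WT females (0.29 ± 0.14, adjusted p = 0.174), and 0.04 ± 0.14 in TG. Lpcat3 was lower in females by 0.23 in WT (SE 0.08), at 115 to 125 CPM against 133 to 150.2 CPM, a difference of -0.23 (adjusted p = 0.0469) that was lost under upper-quartile scaling (adjusted p = 0.0502) and without any 1 of 4 libraries. In TG it was -0.35 ± 0.08 (adjusted p = 0.00609), at 109.8 to 119 CPM against 137 to 162 CPM. Slc40a1 was lower in WT females (-0.38 ± 0.08, adjusted p = 0.00587) and gave -0.11 ± 0.08 (adjusted p = 0.404) in TG. Tfrc was lower in TG females (-0.48 ± 0.11, adjusted p = 0.00724) and gave 0.09 ± 0.11 in WT.

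Sat1 and Ptgs2 showed no call by sex. Sat1 measured 188 to 199 CPM in WT males, 137 to 205 in WT females, 153 to 189 in TG males and 147 to 165 in TG females. Ptgs2 measured 0.269, 2.02 and 1.77 CPM in WT males, 0.46, 2.7 and 2.02 in TG males, 0.785, 3.48 and 1.86 in WT females and 0.493, 1.64 and 1.18 in TG females. Replicate 0 was the lowest and replicate 1 the highest in all 4 groups, and the groups overlapped. Side by side and without a test, these values lie above the NX range (0 to 0.519 CPM) in 9 of the 12 libraries.

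In the pathway lists by sex, iron genes had 6 of 32 higher and 7 lower in WT females and 8 higher and 6 lower in TG females, or 40.6% and 43.8% of the list beside 21.3% and 21.2% of all genes. Steap3, a reductase of endosomal iron, was higher by 1.43 ± 0.15 in WT and 1.42 ± 0.15 in TG, and ceruloplasmin (Cp), which oxidizes iron for export, by 1.18 ± 0.11 and 1.45 ± 0.11. Trf, the iron carrier transferrin, was higher in WT females (1.21 ± 0.28) and gave 0.74 ± 0.28 (adjusted p = 0.0834) in TG. Ncoa4 was higher in females (0.49 ± 0.11 and 0.47 ± 0.11), while Ireb2 was lower (-0.51 ± 0.06 and -0.48 ± 0.06), as was Hmox1 (-1.04 ± 0.28 and -1.16 ± 0.28). In glutathione, cystine and quinone defence 4 of 30 were higher and 10 lower in WT, and 3 higher and 12 lower in TG, or 46.7% and 50% of the list. Cbs, which starts cysteine synthesis from homocysteine, was at -1.10 ± 0.12 and -0.89 ± 0.12, the quinone reductase Nqo1 at -0.79 ± 0.08 and -0.35 ± 0.08, and the glutamine carrier Slc1a5 at 0.90 ± 0.12 and 0.82 ± 0.12. Gpx4 was lower in females by the test in WT (-0.26 ± 0.07, adjusted p = 0.0239) and TG (-0.41 ± 0.07, adjusted p = 0.00187), and the WT call was lost in 4 of the 6 fits without 1 library, and that of Hmox1 in 3. Leaving out WT female replicate 2 gave 9 called genes of this list in place of 14, and leaving out TG female replicate 2 gave 8 called iron genes in TG in place of 14.

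Lipid genes had 8 of 26 higher and 3 lower in WT females, and 4 higher and 5 lower in TG females, or 42.3% and 34.6% of the list beside 21.3% and 21.2% of all genes. Agps, an enzyme of ether lipid synthesis, was lower in females (-1.77 ± 0.13 and -1.64 ± 0.13), and Scd1 (2.06 ± 0.40 and 1.37 ± 0.39) and Cyp4f14 (1.80 ± 0.26 and 1.69 ± 0.26), a fatty acid hydroxylase, were higher. The Scd1 call in TG was lost without any 1 of 3 libraries (adjusted p from 0.0611 to 0.0866). In the polyamine list 4 of 19 were higher and 2 lower in WT, and 4 higher and 3 lower in TG, or 31.6% and 36.8% of the list. Odc1, which makes the polyamine putrescine, fell from 1076 ± 570.4 CPM in WT males to 399 ± 50.5 CPM in WT females (-1.43 ± 0.27) and by 1.31 in TG (SE 0.27). Slc7a6 and Amd2 were higher in WT females by 0.95 ± 0.31 and 0.79 ± 0.25, and gave 0.03 ± 0.31 and 0.24 ± 0.24 in TG. Slc7a6 lost its WT call without either of 2 males, either of 2 females (adjusted p from 0.0849 to 0.211) or under RLE scaling, and Amd2 without any 1 of 4 libraries (0.0757 to 0.141). In the prostaglandin list 5 of 15 were higher and 0 lower in WT, and 6 higher and 2 lower in TG (33.3% and 53.3% of the list), led by Hpgd, which inactivates prostaglandins (1.52 ± 0.17 and 1.56 ± 0.17). Ptgis, the prostacyclin synthase, was higher by 0.94 ± 0.21 and 1.12 ± 0.21, and the exporter Abcc4 by 0.73 ± 0.21 in each genotype, a call lost without any 1 of 4 libraries in WT and likewise in TG. The polyamine count in WT fell from 6 to between 2 and 5 when 1 library was left out, and the prostaglandin count from 5 to as low as 3 in WT and from 8 to between 3 and 5 in TG.

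The gene whose profile lay nearest to each member was found among 14896 named genes by the root mean square difference of group means (log2 CPM, centred within each table) over the 8 groups. Lpcat3 lay nearest to Fto (0.0172) and Fth1 to Tpi1 (0.0205). Ftl1 lay nearest to Itgb5 (0.0326), Slc40a1 to Mlph (0.0418), Slc3a2 to Rin3 (0.0431), Tfrc to Hnrnpab (0.0435) and Sat1 to Siah2 (0.0457). Acsl4 lay nearest to Borcs6 (0.0541), Aifm2 to Ephb4 (0.0613) and Ptgs2 to Arc (0.207). As examples, Siah2 went beside Sat1 from 17.3 ± 2.91 to 39.7 ± 4.37 CPM between WT NX and WT IRI, and Arc went from 1.14 ± 0.393 to 109 ± 21.3 CPM. Mlph, like Slc40a1, was lowest in TG IRI (7.18 ± 1.22 CPM) and highest in TG males without surgery (17.7 ± 2.66 CPM).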

How the data were processed

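The deposited values are whole-number counts per gene, not normalized, in 2 tables, 1 of the 12 no-surgery libraries and 1 of the 18 others. The authors used fastp 0.23.2 to trim reads, STAR 2.7.0 to align them to GRCm39 and featureCounts 2.0.3 to count them, per the submitters' processing notes, and per the file headers they counted over exons of the Ensembl release 112 annotation with EGFP added. Whether counting used strand is not given in the sources used here. Odd values made up 37.3 to 41.9% of counts of 10 or more, so counts were also halved, for the case that both reads of a pair were counted. Symbols came from GENCODE M21 by identifier, which matched 51881 of 57133 genes (90.8%).

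Tests were edgeR 4.0.16 (R 4.3.3) quasi-likelihood tests, two-sided, with TMM scaling, filterByExpr and Benjamini-Hochberg adjustment over all tested genes. IRI against NX and its interaction with genotype used all 18 NX and IRI libraries, TG against WT after IRI or NX used those groups alone, and comparisons without surgery used all 12. CPM are counts divided by the TMM-scaled library size. The test was checked on simulated counts. Alternatives were DESeq2 1.42.0, limma-voom (limma 3.58.1) with sample weights, upper-quartile or RLE (relative log expression) factors, all genes without a filter, the replicate number as a block, halved counts, the 2 groups alone and each library left out. Leaving out both no-surgery libraries richest in Adipoq, WT female replicate 1 and TG male replicate 1, was chosen after seeing the data, as was applying the alternatives to the pathway lists. The replicate numbers come from the sample titles. Same-numbered libraries deviated together between WT and TG males (correlations of deviations 0.124 to 0.562), WT and TG females (0.103 to 0.384) and WT males and females (0.119 to 0.434), with every pair over 0.1. Correlations were also positive in every pair of TG males and females (0.088 to 0.41), WT and TG NX (0.051 to 0.174) and WT NX and WT IRI (0.023 to 0.107). They ran from -0.048 to 0.115 between TG NX and TG IRI, and from -0.066 to 0.191 between WT and TG IRI.

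The members and lists were chosen with earlier results of these data known. Named genes are the 10 members, the 3 called genes of largest change per pathway list at 1 CPM or more (IRI against NX and females against males, in WT), Gpx4, Slc7a11, Hmox1, Ncoa4 and Ireb2, the nearest gene to each member, and markers of cell types that moved with a member. Ferritin copies were looked up after their values were seen. A gene of the red cell marker list is not reported here and was left out of its sums and counts.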

Additional observations from a re-analysis of the deposited data

Results flagged for a closer look

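Lpcat3 in WT IRI replicate 3, at 112 CPM, lay further below the other 5 libraries of its group, at 126 to 134 CPM, than Dixon's 95% limit allows. Chance flags about 1 in 20 groups, and 20 groups of 6 libraries were looked at. Leaving that library out changed no call of Lpcat3.

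The TG against WT difference of Tfrc without surgery had opposite signs by sex, with TG libraries all above WT in males and all below in females. The test of the difference gave -0.57 ± 0.15 (edgeR, adjusted p = 0.381) and did not pass the threshold.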

How the results depend on the processing

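Over the 10 genes and 10 comparisons, 1679 of the alternative fits kept the side of the threshold, 31 lost a call, 19 gained one and 0 reversed a called change. The 1679 include changes called in neither fit, whose direction could differ. The count of 0 for TG against WT in females without surgery became 1, Slc40a1, with RLE factors, upper-quartile factors, no count filter, DESeq2, limma-voom, the replicate block, halved counts and without both Adipoq-rich libraries. Leaving out 1 library gave 5 called members in each fit for IRI against NX in WT, 5 to 6 in TG, 4 to 6 for females against males in WT and in TG, and 0 elsewhere. The replicate block changed no other call of a member. Mean levels moved by less than 1 SD with CPM by total counts for 73 of 80 values, and by more for 7.

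Counts of called genes in the lists moved more, and the cause was not tested. For IRI against NX, upper-quartile factors gave 16 iron genes in WT and 14 in TG, DESeq2 gave 7 prostaglandin genes in WT, and limma-voom gave 13 lipid genes in TG. Leaving out 1 library gave 9 to 13 lipid and 5 to 8 polyamine genes in WT and 2 to 6 prostaglandin genes in TG. For females against males, the polyamine count in WT was 3 with the 2 groups alone and 3 without both Adipoq-rich libraries, which left 4 prostaglandin genes in TG. Leaving out 1 library gave, in WT, 9 to 13 glutathione, 2 to 5 polyamine and 3 to 5 prostaglandin genes, and in TG 8 to 12 iron and 3 to 5 prostaglandin genes. Depth was 49040915 counts or more in each library, and Ptgs2 after NX had 0 to 50 counts.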
